A study of Homo sapiens with 23 samples.

Results

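Transcription was compared across all genes between T47D breast cancer cells after 1 h of TRPS1 degradation and the same cells in DMSO. These were 8 of the 23 libraries of a degradation time course, chosen by their labels. All 23 libraries entered the filter and the fit, which tested 26057 genes, so the spread behind each p-value comes from all of them. TRPS1 is an atypical GATA-family zinc finger protein that binds GATA motifs and is known mainly as a transcriptional repressor. It is highly expressed in luminal breast tissue, where the identity of the hormone-responsive luminal cell is held by a network of factors that includes GATA3, FOXA1, SPDEF, the grainyhead-like factors and the estrogen receptor. The question here was which genes changed in transcription 1 h after TRPS1 protein was removed, mainly those that were transcribed less.

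The data were gene counts from PRO-seq (precision nuclear run-on sequencing, which reads RNA polymerases engaged on genes and so measures transcription in progress rather than accumulated mRNA). The cells were T47D_dTAG_TRPS1_Clone_28, 1 edited clone of T47D, a line from a luminal breast cancer that carries the estrogen receptor. In this clone the only TRPS1 protein carries an FKBP12 F36V degron tag, and the remaining copies of the gene are knocked out. The DMSO group received 0.1% v/v DMSO for 24 h (4 libraries), and the degradation group received 50 nM dTAG-13 with 50 nM dTAG-V-1, both of which recruit a ubiquitin ligase to the tag, for 1 h (4 libraries). All cells grew in serum and insulin and expressed the tagged protein. Whether the 1 h dishes had DMSO beforehand is not clear from the labels, so an effect of hours in vehicle cannot be told apart from the degradation, and a single clone was used in both. Protein levels of TRPS1 are not in these data. The other 15 libraries hold 0.5, 2, 4 and 24 h of degradation, and the 24 h group has only replicates 2 to 4.

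DMSO libraries held 7143166 to 13910436 counts and 1 h libraries 5016775 to 8789399. Replicates carried numbers 1 to 4 in both groups, each number being a set of dishes treated and collected at its own time of the same day, so p-values measure the spread between dishes of 1 clone. In a principal component analysis of the 8 libraries the first component (38.1% of the variance) held the libraries of numbers 1 and 3 at opposite ends, without placing those of number 4 together, and the second (15.1%) set the 1 h replicate 4 library apart, at -51.3 against -3.21 to 19.9 in the other 7. Results are therefore also given without that library. The 12 luminal markers summed to 7289 to 7910 CPM (counts scaled to library size) in DMSO and 6459 to 7068 CPM at 1 h, whereas the marker lists of fibroblasts, immune cells and endothelial cells, none with a gene at 0 in all 8 libraries, each stayed at or below 18.3 CPM in every library.

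The TRPS1 gene itself was transcribed at 9171, 7997, 10157 and 9359 CPM in DMSO replicates 1 to 4 and at 10260, 10143, 11137 and 11154 CPM in 1 h replicates 1 to 4. It was higher at 1 h in every replicate pair although the groups overlapped, with a log2 fold change of 0.22 ± 0.0336 (SE, adjusted p = 4.65e-04). The degraders act on the protein, so this gene is a check of neither the labels nor the degradation. Without the replicate term its adjusted p was 0.356.

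Of the 26057 genes tested with edgeR's quasi-likelihood test, 846 differed between 1 h and DMSO at a Benjamini-Hochberg adjusted p below 0.1, and 457 of them (1.75% of the genes tested) were lower and 389 (1.49%) higher. The changes were small. The median log2 fold change of the lower genes was -0.24, a fall of 15.1% in CPM, with quartiles of -0.32 and -0.18, and 4 of the 457 fell more than 2-fold. The median of the higher genes was 0.27, with quartiles of 0.19 and 0.47, and 45 of the 389 rose more than 2-fold. The median of all tested genes was 0.01. In 438 of the 457 lower genes all 4 replicate pairs moved the same way, and in 308 every 1 h library lay below every DMSO library, as in 759 (2.91%) of all genes tested. In 207 of the 389 higher genes the groups lay apart in the other direction, as in 640 (2.46%) of all genes tested. Protein-coding genes made up 398 of the lower genes and lncRNAs 50. The plot of fold change against level shows that the lower genes form a narrow band just under the rest, while the higher genes include scattered large values.

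**Figure D1:**
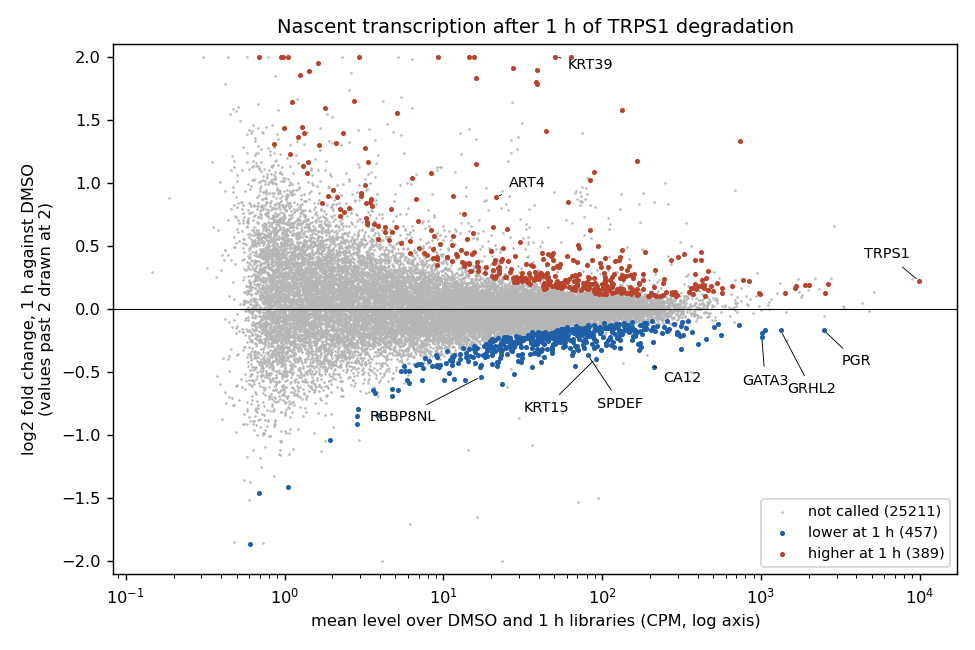
Log2 fold change at 1 h against DMSO (y axis) by mean level in CPM (x axis, log scale), 1 point per tested gene, with the 457 genes called lower in blue and the 389 called higher in red. The middle 50% of the lower genes lie between -0.32 and -0.18, and larger rises such as KRT39 at 3.84 are drawn at the edge of the axis.

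These counts depended on the fit. Without the replicate term 325 genes were called (191 lower, 134 higher), and without the 1 h replicate 4 library 628 (351 lower, of which 302 were among the 457). Lower genes made up 54.0% of the calls, and the share moved with the fit. It was 67.5% with total-count scaling, 44.96% with the 8 DMSO and 1 h libraries alone (192 of 427), 47.4% without replicate 3 and 41.9% without the low-count filter. GC content moved with the result. Among protein-coding genes, 4.45% of those in the highest quintile of GC content (53.4 to 76.0%) were called lower and 0.191% higher, against 1.53% and 3.37% in the lowest quintile (32.3 to 39.2%). The median log2 ratio of the highest quintile was -0.06, -0.10, -0.01 and -0.10 in replicate pairs 1 to 4, so the shift was least in pair 3. With offsets that remove the GC trend within each library, 510 genes were called lower (1.96%) and 358 higher (1.37%). In that fit the lowest quintile had 4.74% lower and 2.26% higher, and the highest quintile 2.32% and 0.668%. Of the 457 lower genes 338 were called lower in that fit too, and of the 389 higher genes 312 were called higher. What part GC content had in each gene's change was not tested further, and counts with GC offsets are given beside the gene groups described below.

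Gene span moved with the calls in a different way for each direction. The share of protein-coding genes called lower was 1.36% for spans under 10 kb and 3.40% for 100 to 300 kb, and was 1.09% over 300 kb. With GC offsets these shares were 0.946%, 5.87% and 2.91%, so the order of the shortest and longest classes changed. The share called higher went up across all 5 span classes, from 0.606% to 6.31% (0.908% to 4.98% with GC offsets), but among genes that overlap no other gene only 1 of the 39 over 300 kb was called higher and 3 were called lower. The plot of calls by span and GC content gives these shares with their 95% Wilson intervals, which cover counting error only.

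**Figure D2:**
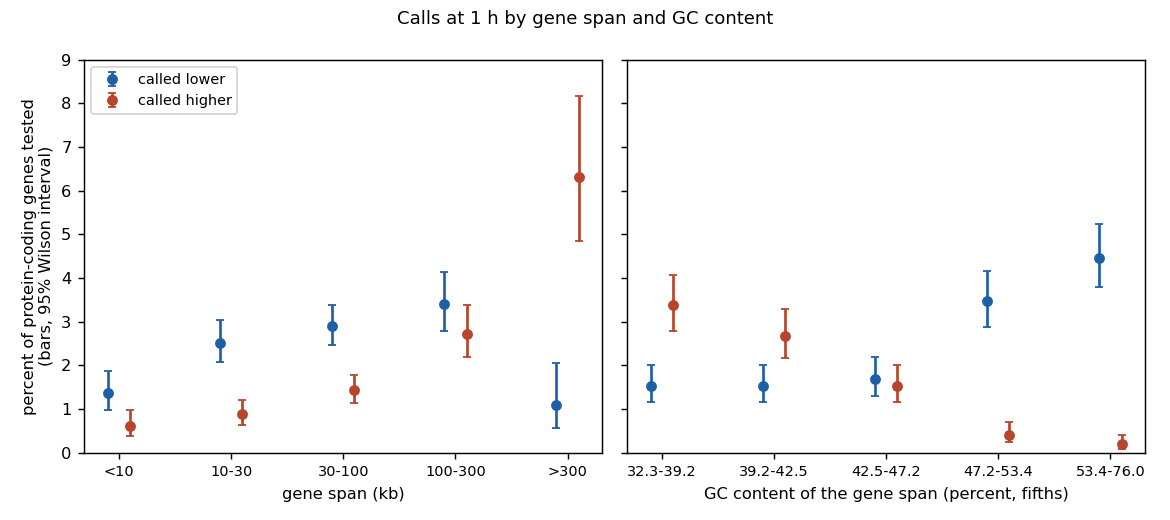
Percent of tested protein-coding genes called lower (blue) or higher (red) at 1 h, by gene span in kb (left) and by quintiles of GC content (right), with 95% Wilson intervals. Higher calls reach 6.31% of genes over 300 kb and fall to 0.191% in the highest quintile of GC content, where lower calls reach 4.45%.

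Several transcription factors of the luminal lineage were among the lower genes. Of 24 tested members of a list of such factors, 8 fell and 5 rose (8 and 3 with GC offsets, 4 and 3 without the 1 h replicate 4 library). The list's median log2 fold change was -0.07, against 0.01 over all genes. GATA3, the master regulator of luminal differentiation (chromosome 10, 8045378 to 8075198, hg38), was at 1113, 1078, 1092 and 1077 CPM in DMSO replicates 1 to 4 and at 945, 926, 924 and 952 CPM in 1 h replicates 1 to 4. The 1 h libraries all lay below the DMSO libraries, and the log2 fold change was -0.22 ± 0.0246 (SE, adjusted p = 1.91e-05). The antisense gene GATA3-AS1, with a log2 fold change of -0.28 (adjusted p = 0.00422), overlaps GATA3, and whether counting used strand is not given in the sources used here.

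SPDEF, an ETS-family factor of secretory epithelium, had 98.2, 96.4, 84.3 and 86.98 CPM in the DMSO libraries and 73.3, 69.7, 71.1 and 69.6 CPM in the 1 h libraries. Its groups were fully apart, with a log2 fold change of -0.36 ± 0.0481 (SE, adjusted p = 1.34e-04). GRHL2, which maintains epithelial gene expression, fell in every pair from 1410 ± 43.3 CPM in DMSO to 1254 ± 16.5 CPM at 1 h (SD, n = 4 each). Its log2 fold change was -0.17 ± 0.0297 (SE, adjusted p = 0.00218). MYB, a proto-oncogene factor induced by estrogen, had a log2 fold change of -0.24 ± 0.0532 (SE, adjusted p = 0.0159), with DMSO and 1 h libraries that overlapped. GRHL1 at -0.30, TFAP2A at -0.13, CITED2 at -0.18 and XBP1 at -0.14 were the other lower members, all on the log2 scale.

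Other factors of the same network did not pass the test or rose. FOXA1, the pioneer factor that opens chromatin for the estrogen receptor, did not pass the test (162 ± 14.6 CPM in DMSO and 154 ± 7.50 CPM at 1 h, log2 fold change -0.07, adjusted p = 0.404). ESR1, the gene of the estrogen receptor alpha, was likewise not called (2527 ± 134 CPM in DMSO and 2435 ± 71.8 CPM at 1 h, log2 fold change -0.05, adjusted p = 0.43). EHF, an ETS factor of epithelial cells, rose in every pair, from 429.9, 397, 424 and 393 CPM in DMSO to 508, 457, 491 and 492 CPM at 1 h, a log2 fold change of 0.24 ± 0.0318 (SE, adjusted p = 1.20e-04). AFF3 rose by 0.13 on the log2 scale, with groups that overlapped.

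Among the 12 luminal markers fixed as a check of cell identity, 5 fell and none rose, and all 12 had fold changes below 0. The 5 were GATA3, SPDEF, KRT19, PGR and KRT8, and 6 markers were called lower with GC offsets. Both groups came from 1 clone, and bulk libraries give a sum over cells, so transcription in single cells was not measured. Of the 5 tested markers of basal or myoepithelial cells, TP63, the master factor of basal epithelium, was called higher, at 20.8, 20.03, 19.97 and 18.3 CPM in DMSO and 32.5, 23.4, 26.7 and 29.4 CPM at 1 h. The 8 basal markers summed to 56.7 to 62.7 CPM in DMSO and 57.0 to 66.5 CPM at 1 h. TP63 rose in every pair without overlap, with a log2 fold change of 0.48 ± 0.0767 (SE, adjusted p = 7.61e-04).

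A list of genes known to be induced by estrogen in breast cancer cells had members in both directions. Of 73 tested members 14 (19.2%) were called lower and 4 (5.48%) higher, counts that were the same with GC offsets and were 13 and 2 without the 1 h replicate 4 library. The median of the list was -0.07 on the log2 scale, and 49 of the 73 members lay below 0. Among all genes with a mean of at least 100 counts, a set closer to these genes in depth, 3.14% were called lower and 2.34% higher. The list was drawn up with earlier results of these data known, so its counts are a description.

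CA12, a membrane carbonic anhydrase and an estrogen receptor target (chromosome 15, 63321378 to 63381846, hg38), had the smallest p of all lower genes. It was transcribed at 258, 259, 236 and 230.1 CPM in DMSO replicates 1 to 4 and at 180.3, 194, 169.9 and 171 CPM in 1 h replicates 1 to 4. Every 1 h library was below every DMSO library, and the log2 fold change of -0.46 ± 0.0322 (SE, adjusted p = 5.52e-08) was past the threshold under each of the 14 alternative fits. B4GALT1, a Golgi galactosyltransferase, went from 205, 186, 186 and 177 CPM in DMSO to 166, 158, 149 and 153 CPM at 1 h, a log2 fold change of -0.27 ± 0.0312 (SE, adjusted p = 2.86e-05). CXCL12, the chemokine that binds CXCR4, went from 130.5, 132, 124 and 126 CPM in DMSO to 113, 109.9, 98.4 and 107 CPM at 1 h, a log2 fold change of -0.26 ± 0.0345 (SE, adjusted p = 1.34e-04). Neither B4GALT1 nor CXCL12 had overlapping groups.

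CCND1, which encodes the G1 cyclin D1, fell in every pair from 166, 179, 161 and 159 CPM in DMSO to 149.5, 145, 147 and 119 CPM at 1 h, and the replicate 4 library was the lowest. Its log2 fold change was -0.25 ± 0.0394 (SE, adjusted p = 7.61e-04), and -0.21 without that library. PGR, the progesterone receptor gene, was at 2630, 2378, 2879 and 2642 CPM in DMSO and 2263, 2231, 2419 and 2455 CPM at 1 h. Its groups overlapped, although each pair fell, and the log2 fold change was -0.17 ± 0.0343 (SE, adjusted p = 0.00866) with an adjusted p of 0.499 without the replicate term. KCNK5, a two-pore potassium channel, had a log2 fold change of -0.39 ± 0.069 (SE, adjusted p = 0.00255), with non-overlapping groups. RARA, the retinoic acid receptor alpha, had one of -0.19 ± 0.0328 (SE, adjusted p = 0.0017), also without overlap. FKBP4, a chaperone partner of steroid receptors, had one of -0.17 ± 0.045 (SE, adjusted p = 0.0444) with overlapping groups. The adjusted p of FKBP4 was 0.122 with GC offsets and 0.802 without the replicate term.

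The 4 estrogen-induced genes that rose were RERG, a RAS-like growth inhibitor, TPD52L1, CALCR, the calcitonin receptor, and IRS1, the adaptor of the insulin and IGF1 receptors. Their log2 fold changes were 0.30, 0.23, 0.25 and 0.17. RERG ranged from 364 to 468 CPM in DMSO and from 474 to 558 CPM at 1 h, without overlap. The classical estrogen target GREB1 did not pass the test (1008 ± 48.05 CPM in DMSO and 1001 ± 14.1 CPM at 1 h, log2 fold change -0.01, adjusted p = 0.935).

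**Figure D3:**
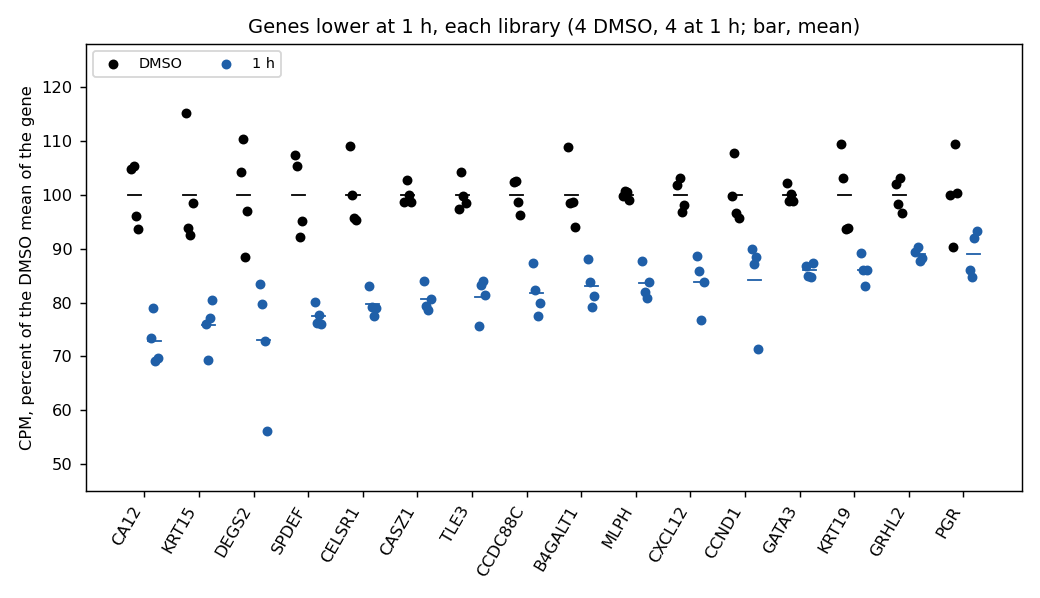
CPM of 16 lower genes in each library (y axis, percent of the gene's own DMSO mean), with the 4 DMSO libraries in black, the 4 libraries at 1 h in blue and bars at the means. Only PGR shows overlap between the groups, and the lowest 1 h point of CCND1 is the replicate 4 library.

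Some keratins and junction genes fell as well. Keratins build the intermediate filaments of epithelial cells, and 4 of the 10 tested members of the keratin list fell and none rose (3 and 0 with GC offsets, 3 and 0 without the 1 h replicate 4 library). The hair keratin KRT39, which is outside that list, rose. KRT15, a basal-layer keratin, was at 119, 97.3, 96.1 and 102 CPM in DMSO and at 78.8, 71.97, 79.97 and 83.5 CPM at 1 h. All 1 h libraries were lower than all DMSO libraries, and the log2 fold change was -0.39 ± 0.0581 (SE, adjusted p = 4.01e-04). KRT19, a simple epithelial keratin, was at 362, 341, 310.1 and 310.5 CPM in DMSO and 295, 285, 275 and 285 CPM at 1 h, also without overlap. Its log2 fold change was -0.21 ± 0.0313 (SE, adjusted p = 3.78e-04). KRT7 had a log2 fold change of -0.24 ± 0.0591 (SE, adjusted p = 0.032), and with GC offsets its adjusted p was 0.122. KRT8 had one of -0.20 ± 0.0525 (SE, adjusted p = 0.0498) with overlapping groups.

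In the list of epithelial junction and adhesion genes, 9 of 63 tested members fell and 2 rose (7 and 2 with GC offsets, 8 and 1 without the 1 h replicate 4 library). The median log2 fold change of the list was -0.07. LAMA5, a laminin chain of basement membranes, went from 116 ± 2.61 CPM in DMSO to 95.6 ± 7.83 CPM at 1 h (SD, n = 4 each) with no overlap, a log2 fold change of -0.29 ± 0.0433 (SE, adjusted p = 4.55e-04). CGN, the tight junction protein cingulin, went from 63.2 ± 3.15 CPM in DMSO to 51.1 ± 1.28 CPM at 1 h without overlap, a log2 fold change of -0.30 ± 0.065 (SE, adjusted p = 0.0127). OVOL2, a repressor of mesenchymal genes, had one of -0.21 ± 0.0462 (SE, adjusted p = 0.0149), with overlapping groups. The other lower members were GRHL2, ESRP1 at -0.14, OVOL1 at -0.56, ITGB4 at -0.20, NECTIN1 at -0.16 and TJP3 at -0.24. The junction genes PATJ at 0.12 and CTNND1 at 0.18 rose. CDH1, the gene of E-cadherin, was not called (276 ± 12.6 CPM in DMSO and 270.2 ± 24.2 CPM at 1 h, log2 fold change -0.04, adjusted p = 0.833).

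The 10 lower genes of smallest p were CA12, GATA3, SPDEF, B4GALT1 and CXCL12, described above, with CELSR1, a planar cell polarity cadherin, MLPH (melanophilin), TLE3, CASZ1 and CCDC88C. CELSR1 was at 208, 190.1, 182 and 182 CPM in DMSO and 158, 151, 148 and 150.3 CPM at 1 h, a log2 fold change of -0.33 ± 0.037 (SE, adjusted p = 2.08e-05). MLPH was at 228, 230.2, 230.0 and 227 CPM in DMSO and 200.5, 188, 185 and 192 CPM at 1 h, a log2 fold change of -0.26 ± 0.0302 (SE, adjusted p = 2.77e-05). Neither gene had overlapping groups. TLE3, a Groucho-family corepressor, had a log2 fold change of -0.30 ± 0.0382 (SE, adjusted p = 8.96e-05). CASZ1, a zinc finger factor, had one of -0.31 ± 0.041 (SE, adjusted p = 1.29e-04), and CCDC88C, a regulator of Wnt signalling, one of -0.29 ± 0.0387 (SE, adjusted p = 1.29e-04). In all 3 every 1 h library lay below every DMSO library.

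The largest falls were mostly in genes with low levels. Among protein-coding genes with a mean of at least 100 counts, the largest was that of RBBP8NL (chromosome 20, 62410237 to 62427539, hg38), from 19.8, 23.1, 17.6 and 21.6 CPM in DMSO to 12.1, 16.4, 13.8 and 13.5 CPM at 1 h, without overlap and with a log2 fold change of -0.54 ± 0.0981 (SE, adjusted p = 0.00298). ADIRF, an adipogenesis factor, followed at -0.51 ± 0.0916 (SE, adjusted p = 0.00255), and its span overlaps MMRN2 and the lncRNA ENSG00000271880, which was itself lower at -0.43. DEGS2, a sphingolipid desaturase, had a log2 fold change of -0.45 ± 0.0651 (SE, adjusted p = 3.10e-04). MYZAP, a cell junction protein whose reads are shared with the longer readthrough gene GCOM1, had one of -0.46. SELENOW, a selenoprotein, had one of -0.44, SFXN3, a mitochondrial serine transporter, -0.42, BCORL1, a corepressor, -0.42, and CACNA1H, a T-type calcium channel subunit, -0.41. CA8, an inactive relative of the carbonic anhydrases, had one of -0.43, and MAST1, a microtubule-associated kinase, -0.41. The call of MAST1 was lost when any 1 replicate was left out, and that of SLC47A1, a drug and cation exporter with a log2 fold change of -0.46, was kept in 1 of 4 such fits.

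Of the lower genes that do not encode proteins or are not in the annotation, those with the largest falls were ENSG00000225173 at -0.59, ENSG00000261068 at -0.56, LINC02925 at -0.45, ENSG00000271880 and LINC01290 at -0.42. LINC02925 ran from 25.1, 25.4, 22.1 and 27.8 CPM in DMSO to 19.3, 17.99, 17.1 and 18.8 CPM at 1 h, without overlap. In ENSG00000225173 the DMSO libraries spread from 14.1 to 42.1 CPM and the 1 h libraries from 10.6 to 22.3 CPM, so its groups overlapped.

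Genes of signalling pathways were called in both directions, in small numbers. In the list of Wnt, Notch and TGFB genes, 5 of 80 (6.25%) fell and 2 (2.50%) rose, against 3.14% and 2.34% of all genes with at least 100 counts, with a list median of -0.01 (5 and 2 with GC offsets). The lower members included the receptors NOTCH1 and NOTCH3, at -0.32 ± 0.0765 (SE, adjusted p = 0.0297) and -0.21 ± 0.0438 (SE, adjusted p = 0.00884), the Frizzled receptor FZD1 at -0.43 and DVL1, the cytoplasmic relay of Wnt receptors, at -0.44. NOTCH1 and DVL1 were not called with GC offsets, at adjusted p of 0.106 and 0.11. Of 72 receptor tyrosine kinase and PI3K genes 3 (4.17%) fell and 2 (2.78%) rose (4 and 2 with GC offsets). Both shares were near those of all genes with at least 100 counts, and the list median was -0.003. EPHB3, an ephrin receptor kinase, went from 54.00 ± 3.26 CPM in DMSO to 42.2 ± 4.61 CPM at 1 h without overlap, a log2 fold change of -0.35 ± 0.0624 (SE, adjusted p = 0.00268).

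Of 87 tested genes of the actin cytoskeleton and its regulators, 7 fell and 2 rose (7 and 2 with GC offsets). PAK4, a kinase downstream of CDC42, had a log2 fold change of -0.27 ± 0.0433 (SE, adjusted p = 7.61e-04). SSH3, a cofilin phosphatase, had one of -0.33 ± 0.0668 (SE, adjusted p = 0.00785), and GSN, the actin-severing protein gelsolin, one of -0.21 ± 0.0384 (SE, adjusted p = 0.00313). None of these 3 had overlapping groups.

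Immediate-early genes respond within minutes to growth factor and stress signals. Of 63 members 6 (9.52%) fell and none rose (5 and 1 with GC offsets), against 3.14% lower among all genes with at least 100 counts. The list median was -0.07, and -0.03 with GC offsets. JUN, a subunit of AP-1, went from 55.9, 56.5, 60.05 and 54.7 CPM in DMSO to 39.9, 49.5, 50.2 and 48.4 CPM at 1 h, without overlap. Its log2 fold change was -0.26 ± 0.0638 (SE, adjusted p = 0.033), and the call was kept in 1 of the 4 fits that leave out a replicate. ZFP36, which destabilises inflammatory mRNAs, had a log2 fold change of -0.36 ± 0.0672 (SE, adjusted p = 0.00408), and KLF10 one of -0.29 ± 0.0685 (SE, adjusted p = 0.0269), both with overlapping groups. IER3 had one of -0.22 ± 0.0565 (SE, adjusted p = 0.0396). The calls of ZFP36, KLF10 and IER3 were kept in 3, 2 and 1 of those 4 fits. EGR1 was not called (7.80 ± 1.32 CPM in DMSO and 7.96 ± 1.50 CPM at 1 h, log2 fold change 0.04, adjusted p = 0.959).

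Among nuclear receptor genes and their cofactors, 5 of 43 fell and 1 rose (8 and 0 with GC offsets). The lower members included RARA, PGR and FKBP4, with values given above, and RARG, a retinoic acid receptor, at -0.19. Of 42 heat shock and chaperone genes 2 fell and 1 rose (2 and 1 with GC offsets), and HSPH1, a large HSP70-type chaperone, went from 40.3, 38.5, 43.3 and 45.05 CPM in DMSO to 29.5, 35.9, 32.9 and 32.7 CPM at 1 h, a log2 fold change of -0.35 ± 0.06 (SE, adjusted p = 0.00191).

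The cholesterol and DNA replication lists had more higher than lower members. Of the 43 cholesterol synthesis genes 4 rose and 1 fell (3 and 1 with GC offsets). HMGCS1, an early enzyme of the pathway, at 0.27 ± 0.0405 (SE, adjusted p = 5.38e-04), rose together with MSMO1 and SC5D, while SREBF1, the gene of a transcription factor of lipid synthesis, fell at -0.23 ± 0.0411 (SE, adjusted p = 0.00236). Of 62 DNA replication genes 4 rose and none fell (3 and 0 with GC offsets, 0 and 0 without the replicate term), among them MCM3, a subunit of the replicative helicase, at 0.20 ± 0.0392 (SE, adjusted p = 0.00518). Of 83 cytosolic ribosomal protein genes 2 (2.41%) rose and none fell (3 and 0 with GC offsets), with a list median of 0.07, and the higher share was near the 2.34% of all genes with at least 100 counts. The remaining lists, which cover among others mitosis, hypoxia, p53 targets, interferon response and solute carriers, had 0 to 7 lower and 0 to 14 higher members each, as the plot of gene lists shows. Without the replicate term the lower and higher counts were 7 and 1 for estrogen-induced genes, 5 and 1 for luminal factors, 5 and 0 for junction genes, 4 and 1 for actin genes and 2 and 0 for luminal markers. In that fit keratins, nuclear receptor genes and immediate-early genes had 1 lower member each.

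**Figure D4:**
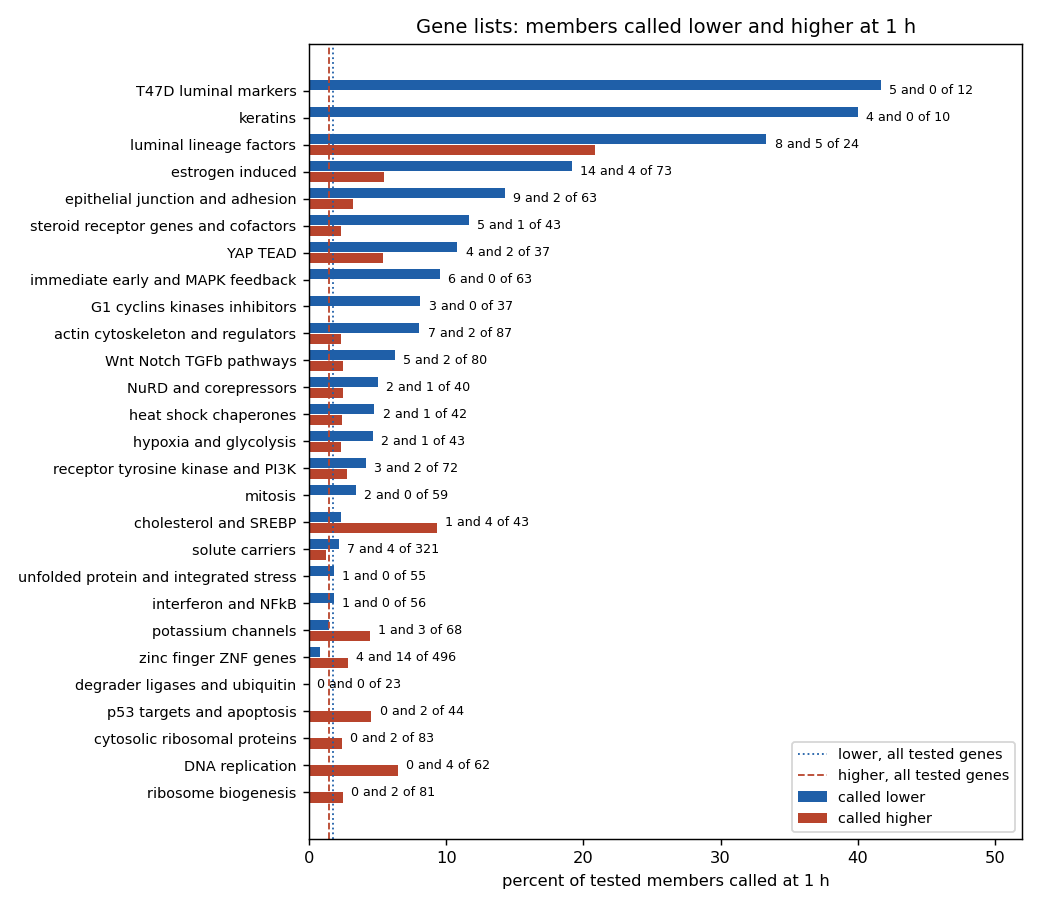
Percent of tested members called lower (blue bars) and higher (red bars) in each gene list with at least 10 tested members, with the numbers at the right. Vertical lines mark the background of 1.75% lower and 1.49% higher over all tested genes. Among genes with at least 100 counts 3.14% were called lower. Luminal markers, keratins, luminal factors and estrogen-induced genes have the highest lower shares, but these lists share members. GATA3 and SPDEF are in both luminal lists, and KRT19 and KRT8 are in luminal markers and keratins.

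The higher genes of smallest p were mostly noncoding or lay beside one another. ART4, an ADP-ribosyltransferase family member that carries the Dombrock blood group, rose from 13.9, 12.6, 17.6 and 15.6 CPM in DMSO to 28.04, 26.7, 27.3 and 29.9 CPM at 1 h, a log2 fold change of 0.89 ± 0.0731 (SE, adjusted p = 2.84e-07). The lncRNAs ENSG00000266850 and ENSG00000265943, which overlap each other and RBBP8, rose by 0.63 and 0.47 on the log2 scale, so their counts cannot be taken as independent. ENSG00000241720, which shares its span with GSTM5, rose by 0.51 and TM4SF18-AS1 by 0.39. In a window of chromosome 19, 51804816 to 52139938 (hg38), chosen after its values were seen, 8 of 9 tested zinc finger genes were called higher. They included ZNF577 at 0.39 ± 0.0421 (SE, adjusted p = 1.17e-05), ZNF613 at 0.40 ± 0.0437 (SE, adjusted p = 1.17e-05), ZNF350 at 0.39 ± 0.0454 (SE, adjusted p = 2.77e-05) and ZNF432 at 0.33 ± 0.0411 (SE, adjusted p = 8.00e-05). Some of these genes overlap each other, such as ZNF432 and ZNF841. Over all 496 tested ZNF genes 14 were called higher and 4 lower (12 and 7 with GC offsets).

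VCAN, the matrix proteoglycan versican, rose by 0.56, P2RY10, a purine receptor family member, by 0.61 and ZC2HC1B by 0.65, all without overlap between groups. The largest rises were uneven between libraries. KRT39 was at 8.68, 11.7, 4.80 and 5.04 CPM in DMSO and 61.8, 19.1, 172 and 124 CPM at 1 h. FLG-AS1 was at 14.1, 11.5, 6.51 and 6.35 CPM in DMSO and 63.1, 17.99, 8.997 and 379 CPM at 1 h, so that the replicate 4 library held most of the rise. SCEL was at 10.4, 5.43, 80.6 and 7.20 CPM at 1 h, against 2.94 to 10.1 CPM in DMSO, and ALK at 63.5, 10.3, 10.1 and 10.9 CPM at 1 h, against 7.16 to 11.2 CPM in DMSO. In both, 1 library stood far above the other 3. CDH17 and the 5S rRNA pseudogene RNA5SP150 varied widely among the DMSO libraries alone, from 2.72 to 27.8 CPM and from 3.94 to 51.95 CPM.

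Overlapping genes limit some of these values, since reads in a shared span cannot be assigned with certainty when the use of strand is unknown. Of the 457 lower genes 337 (73.7%) overlapped another annotated gene, against 74.6% of all genes tested. Genes named above that share their span with a gene holding at least 10% of their counts were GRHL2 (ENSG00000254024), TFAP2A (TFAP2A-AS1) and CITED2 (ENSG00000226571) among luminal factors. Among estrogen-induced genes they were CCND1 (LTO1), RARA (ENSG00000287644), FKBP4 (ITFG2-AS1), TPD52L1 (HDDC2) and, just under that share, B4GALT1 (B4GALT1-AS1). KRT7 (KRT86), KRT8 (KRT18), LAMA5 (ADRM1), OVOL2 (SNX5), ITGB4 (GALK1), NECTIN1 (USP2-AS1), TJP3 (APBA3) and CTNND1 (ENSG00000288534) were such genes of the epithelial lists. The others were DEGS2 (EVL), SFXN3 (PDZD7), MAST1 (HOOK2), MYZAP (GCOM1), ADIRF (MMRN2), GSN (RAB14), IER3 (HCG20), SREBF1 (RAI1), ART4 (C12orf60), ZNF577 (ZNF649), ZNF350 (ZNF350-AS1), ZC2HC1B (ENSG00000280148), VCAN (VCAN-AS1), KRT39 (ENSG00000234477), ALK (CLIP4) and RNA5SP150 (SOX2-OT).

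Promoters were compared next, to describe the start-site sequences of genes that moved in the same direction. RefSeq promoters (GRCh38.p14, 250 bases before to 50 after the start site) within 1000 bases of the annotated gene start were found for 231 of the lower protein-coding genes, 161 of the higher and 10493 of all tested ones. The GATA motif AGATAA, searched on both strands like all that follow, was present in 3.03% of lower, 6.83% of higher and 5.30% of all promoters. The estrogen receptor half-site AGGTCA was present in 8.23%, 9.94% and 9.89%, and the full element (GGTCA, any 3 bases, TGACC), which can overlap a half-site, in 0 of 231, 0 of 161 and 3 of 10493. The AP-1 motif TGANTCA was present in 2.60%, 4.97% and 4.28%, the CCAAT box in 37.2%, 36.0% and 36.6% and the TATA box TATAAA in 3.90%, 11.2% and 6.20%. The median number of CpG dinucleotides was 28, 23 and 26. A match is a description of letters, and none of these shares was tested.

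Upstream sequences of 4 lower genes follow, 5′ to 3′ on the gene's strand, ending at the base before the RefSeq start. CA12 and SPDEF are shown as 2 of the clearest lower genes, JUN as a lower gene with a GATA match, and CXXC5, a CXXC zinc finger protein with a log2 fold change of -0.26, as the lower gene of smallest p with a GATA match, chosen after its values were seen. Capitals mark the motifs named above. The regions are chr15:63381847-63382096 (minus strand), chr6:34556330-34556579 (minus strand), chr1:58784048-58784297 (minus strand) and chr5:139647049-139647298 (plus strand).
CA12: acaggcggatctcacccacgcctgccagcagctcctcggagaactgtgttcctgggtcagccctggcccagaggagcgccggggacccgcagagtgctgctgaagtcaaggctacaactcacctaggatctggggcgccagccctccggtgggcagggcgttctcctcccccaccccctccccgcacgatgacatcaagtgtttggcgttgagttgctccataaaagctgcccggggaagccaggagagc
SPDEF: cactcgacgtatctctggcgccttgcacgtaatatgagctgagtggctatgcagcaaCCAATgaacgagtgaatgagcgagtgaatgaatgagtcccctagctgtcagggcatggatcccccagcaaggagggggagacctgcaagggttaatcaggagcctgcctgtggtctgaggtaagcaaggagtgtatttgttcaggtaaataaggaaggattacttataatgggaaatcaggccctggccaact
JUN: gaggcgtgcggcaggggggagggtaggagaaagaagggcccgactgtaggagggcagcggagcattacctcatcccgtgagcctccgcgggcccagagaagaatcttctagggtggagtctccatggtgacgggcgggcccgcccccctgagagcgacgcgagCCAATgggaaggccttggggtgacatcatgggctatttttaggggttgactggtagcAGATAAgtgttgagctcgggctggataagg
CXXC5: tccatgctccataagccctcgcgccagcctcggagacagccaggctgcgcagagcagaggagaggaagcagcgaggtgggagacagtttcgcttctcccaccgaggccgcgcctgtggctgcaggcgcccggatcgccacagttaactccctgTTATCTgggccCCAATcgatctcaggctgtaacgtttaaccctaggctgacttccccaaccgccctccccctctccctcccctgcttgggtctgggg
No searched motif was in the CA12 window, a CCAAT box was in that of SPDEF, and a GATA motif together with a CCAAT box was in those of JUN and CXXC5.

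The 1 h libraries were then compared with the other times of degradation. The lower genes had a median log2 fold change against DMSO of -0.14 after 0.5 h, -0.24 after 1 h, -0.15 after 2 h, -0.11 after 4 h and -0.05 after 24 h. All of these share the DMSO libraries, and the genes were chosen at 1 h, which favours a larger value there. In direct tests over all genes, 41 differed between 1 h and 0.5 h (22 or 0.0844% lower at 1 h), 180 between 1 h and 2 h (67 or 0.257% higher at 2 h), 329 between 1 h and 4 h (221 or 0.848% higher at 4 h) and 1731 between 1 h and 24 h (941 or 3.61% higher at 24 h). Without the 1 h replicate 4 library these numbers were 22, 32, 178 and 1165.

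Single genes took different courses. CA12 was at -0.35 after 0.5 h, -0.46 after 1 h, -0.25 after 2 h, -0.10 after 4 h and -0.20 after 24 h, and the difference between 4 h and 1 h was 0.36 (adjusted p = 2.03e-06). GATA3 was at -0.22 after 0.5 h and at -0.05 after 24 h, and differed between 24 h and 1 h by 0.17 (adjusted p = 9.78e-04). KCNK5 was at -0.15 after 0.5 h and at -0.63 after 24 h, and the difference between 24 h and 1 h was -0.24 (adjusted p = 0.0766). JUN was at 0.17 after 0.5 h and at -0.26 after 1 h, and this difference passed the test (adjusted p = 0.00436). KRT15 was between -0.39 and -0.29 at every time, ART4 between 0.83 and 0.93 and EHF between 0.23 and 0.27. None of these 3 differed between 1 h and another time at an adjusted p below 0.1, which does not show that their levels were equal.

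**Figure D5:**
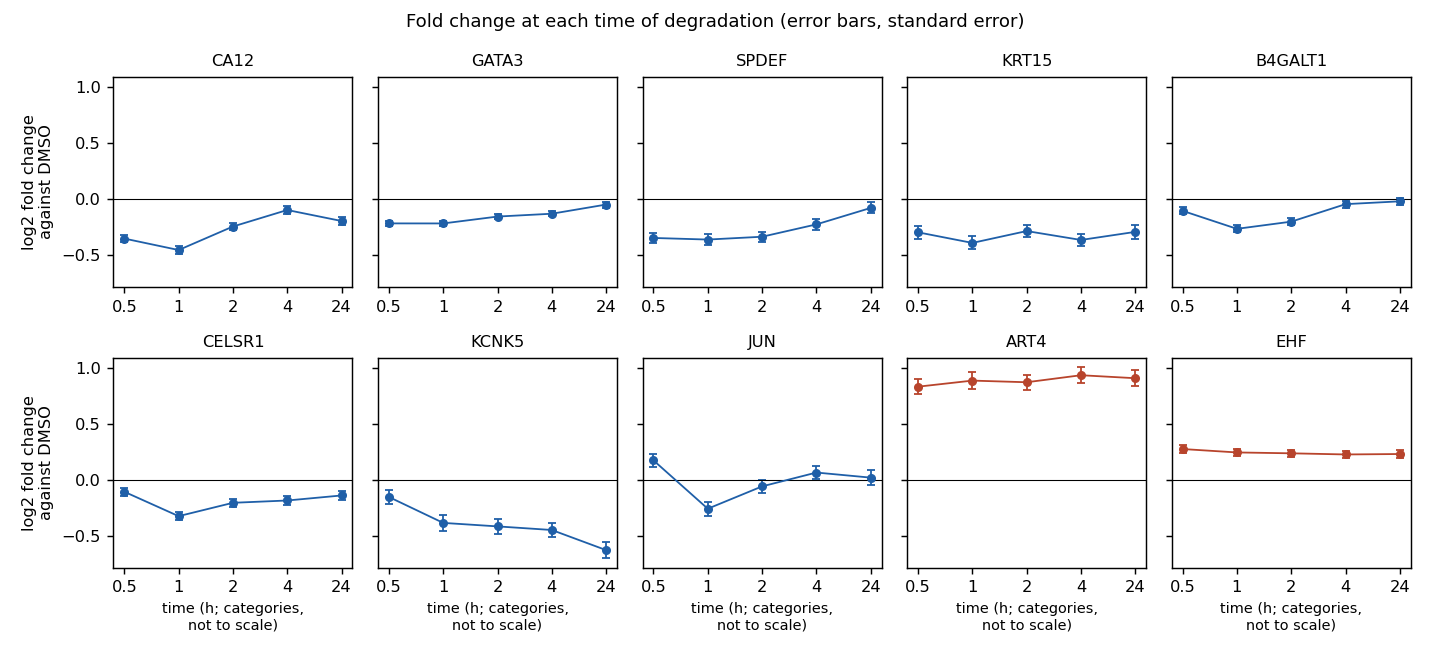
Log2 fold change against DMSO (y axis) of 8 lower and 2 higher genes after 0.5, 1, 2, 4 and 24 h of degradation (x axis, categories), with standard errors from the edgeR fit. CA12 is lowest at 1 h and nearest 0 at 4 h, KCNK5 declines to 24 h, and ART4 stays between 0.83 and 0.93.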

How the data were processed

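Gene-level PRO-seq counts were deposited for each library. Per the methods of the authors and the submitters' processing notes, adapters were trimmed with cutadapt 1.8.1, duplicates were removed by an 8-base molecular identifier, ribosomal DNA reads were discarded, and reads were aligned to hg38 with Bowtie2 2.4.4, filtered with SAMtools 1.9 and counted within genes. The counting strand and annotation version are not given in the sources used here. Identical molecules sharing an identifier count once, so errors in duplicate removal could lower the counts of highly transcribed genes.

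The raw counts of all 23 libraries were fitted with edgeR 4.0.16 (quasi-likelihood, TMM factors, group plus replicate number) in R 4.3.3, after filterByExpr with a minimum count of 10 left 26057 genes, with Benjamini-Hochberg adjustment and a threshold of 0.1. CPM values of single genes use the TMM library sizes, and the sums over marker lists use the total counts of each library. GENCODE 44 names and hg38 coordinates matched 60463 of 60605 gene identifiers. Groups came from the sample labels, and no table column was left unassigned. Replicate numbers were paired because dishes of 1 number were treated and collected together. The correlation of deviations from the group means in the 8 libraries was 0.426, 0.0618, 0.494 and 0.0187 for numbers 1 to 4, so the libraries of numbers 2 and 4 deviated together only weakly. For numbers 2 and 4 the DMSO library correlated best with a 1 h library of another number. The alternatives were no replicate term, the 8 libraries alone, DESeq2 1.42.0, other size factors, no filter, no mitochondrial genes, each replicate left out, and, added after seeing the data, GC-content offsets and removal of the 1 h replicate 4 library. The fit was also run on simulated counts, which held no replicate or GC effects. It called 18 of 50 genes set to 0.85-fold, 48 of 50 at 0.7-fold, 19 of 50 at 1.2-fold and 44 of 50 at 1.4-fold. It also called 15 genes that had been left unchanged.

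Genes were named by rule. These were TRPS1, the 15 coding and 5 other lower genes with the largest falls, the 10 with the smallest p, the 8 coding and 2 other higher genes with the largest rises, the 5 with the smallest p, each with a mean of at least 100 counts and all 4 pairs in that direction, and up to 4 called members of each gene list per direction. Further called members were named to complete a list's count, as were genes overlapping a named one and, as values without a call, a few well-known members. Some genes that the rule names are not reported here. The comparison, the genes and the lists were chosen with earlier results of these data known.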

Additional observations from a re-analysis of the deposited data

Results flagged for a closer look

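The 1 h change differed from the change at another time of degradation, in a direct edgeR test of the 2 times, for many of the genes described above. Log2 differences follow in brackets after each gene. The same 1 h libraries enter each of these differences, and the genes were chosen at 1 h. In 1 h against 0.5 h, adjusted p ran from 0.00436 to 0.0833. Levels were higher at 1 h than at 0.5 h for KRT39 (4.14), ZC2HC1B (0.58) and ENSG00000266850 (0.22). Levels were lower at 1 h than at 0.5 h for JUN (-0.43), CELSR1 (-0.22), B4GALT1 (-0.16) and MLPH (-0.16). In 2 h against 1 h, adjusted p ran from 0.00947 to 0.0736. Levels were higher at 2 h than at 1 h for LINC01290 (0.31), SFXN3 (0.28), HMGCS1 (0.25), CA12 (0.21), CASZ1 (0.18), SREBF1 (0.17) and MLPH (0.15). Levels were lower at 2 h than at 1 h for KRT39 (-4.92), SCEL (-3.27), FLG-AS1 (-3.06), CDH17 (-2.77), RNA5SP150 (-2.37), ZC2HC1B (-0.60) and MCM3 (-0.18). In 4 h against 1 h, adjusted p ran from 2.03e-06 to 0.0917. Levels were higher at 4 h than at 1 h for CA12 (0.36), JUN (0.32), LINC01290 (0.31), CGN (0.30), KLF10 (0.29), ZFP36 (0.28), HMGCS1 (0.25), HSPH1 (0.24), B4GALT1 (0.22), SREBF1 (0.21), MLPH (0.18), GSN (0.15), CELSR1 (0.14) and PATJ (0.11). Levels were lower at 4 h than at 1 h for KRT39 (-2.97), FLG-AS1 (-2.77), CDH17 (-2.34), ZC2HC1B (-0.54) and MCM3 (-0.26). In 24 h against 1 h, adjusted p ran from 2.35e-04 to 0.0843. Levels were higher at 24 h than at 1 h for BCORL1 (0.42), ADIRF (0.35), MYZAP (0.34), SFXN3 (0.34), CGN (0.31), KRT7 (0.29), CCDC88C (0.29), DEGS2 (0.29), SPDEF (0.28), LAMA5 (0.28), SSH3 (0.28), JUN (0.28), SELENOW (0.28), ZFP36 (0.28), NOTCH1 (0.26) and KLF10 (0.26). They were also higher at 24 h than at 1 h for LINC01290 (0.26), CA12 (0.26), HSPH1 (0.26), B4GALT1 (0.25), EPHB3 (0.24), LINC02925 (0.24), IER3 (0.24), CALCR (0.22), TLE3 (0.22), CASZ1 (0.21), SREBF1 (0.19), IRS1 (0.19), CELSR1 (0.19), CCND1 (0.18), MLPH (0.18) and GSN (0.17). They were also higher at 24 h than at 1 h for GATA3 (0.17), PAK4 (0.16), RARA (0.15) and NOTCH3 (0.15). Levels were lower at 24 h than at 1 h for KRT39 (-3.78), SCEL (-3.66), FLG-AS1 (-3.18), CDH17 (-2.42), RNA5SP150 (-2.30), ZC2HC1B (-0.62), MCM3 (-0.27), KCNK5 (-0.24), ZNF577 (-0.18), HMGCS1 (-0.18) and ZNF432 (-0.14).

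In 11 groups of 4 libraries 1 library lay far from the other 3, with a gap to its neighbour above Dixon's 95% critical value as a share of the group's range. They were MYZAP at 16.8 CPM in 1 h replicate 1, ENSG00000225173 at 10.6 CPM in 1 h replicate 2, SCEL at 80.6 CPM in 1 h replicate 3, ALK at 63.5 CPM in 1 h replicate 1, FLG-AS1 at 379 CPM in 1 h replicate 4, CCND1 at 119 CPM in 1 h replicate 4, together with IER3 at 67.2 CPM in DMSO replicate 2, CGN at 58.5 CPM in DMSO replicate 3, OVOL2 at 170 CPM in 1 h replicate 1, SSH3 at 48.3 CPM in DMSO replicate 2 and SSH3 at 39.4 CPM in 1 h replicate 2. Chance alone marks about 1 in 20 groups, and 178 groups were examined. The lone values of SCEL, ALK and FLG-AS1 belong to different 1 h replicates, so no single library holds all of them.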

How the results depend on the processing

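Of the 846 genes called, 457 lower and 389 higher, the numbers without the replicate block were 325, 191 and 134. With the 8 DMSO and 1 h libraries alone they were 427, 192 and 235 with the replicate block and 69, 33 and 36 without it. Leaving out 1 replicate gave 347 to 733 in all, 167 to 373 lower and 147 to 360 higher. Total-count scaling gave 253 higher genes and 525 lower, a split of 67.5% lower against 54.0%, and no low-count filter gave 1290 in all with 749 higher. A threshold of 0.05 left 534. For 1 h against 0.5 h, 41 genes became 6 without the block, 20 with total counts, 623 without a filter, 123 with DESeq2, 22 without the 1 h replicate 4 library and 5 to 513 with 1 replicate left out. For 2 h the 180 became 7, 279, 1204, 32 (without the 1 h replicate 4 library) and 3 to 582. For 4 h the 329 became 65, 164, 812, 178 and 36 to 922. For 24 h the 1731 became 542 without the block and 308 to 2517 with 1 replicate left out. None of the 137 genes named by the rule changed direction under any of these fits. Of them 65 were no longer called without the block, 52 in the 8 libraries alone with the block and 109 in those libraries without it, 17 with GC offsets, 12 with DESeq2 and 28 to 66 with 1 replicate left out. The causes were not tested. Libraries of 5016775 to 13910436 counts limit what can be seen in genes with few counts.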
